A study of Mus musculus with 6 samples.

Results

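YAP (gene Yap1) and its relative TAZ (gene Wwtr1) are transcriptional coactivators that enter the nucleus and act through the TEAD DNA-binding factors. The 10 genes described here are these 2 coactivators, the DNA-binding factor Tead1, and 7 genes that are known targets or regulators of the pathway: Ccn1, Ccn2, Ankrd1, Amotl2, Ajuba, Lats2 and Axl. They were listed by name, with earlier results of these data known. The annotation writes connective tissue growth factor (Ctgf) as Ccn2 and Cyr61 as Ccn1. All 10 were found among the 36047 genes matched to the annotation, and all 10 passed the filter on low counts that left 13451 genes for testing.

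As background, the Hippo pathway is a kinase cascade in which MST kinases activate the LATS kinases, and LATS kinases phosphorylate YAP and TAZ so that they stay in the cytoplasm or are degraded. Cell crowding and weak actin tension favour that inactive state, and spreading and stiff surfaces favour the active one. In the lung, YAP and TAZ are known for their roles in epithelial growth, in the fate of alveolar cells and in repair after injury. Control of YAP and TAZ is exerted largely on the proteins, and RNA levels do not measure it.

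Gene expression was measured by RNA-seq of polyA RNA from wild-type MLE-12 cells, a single line of mouse lung epithelium that carries viral large T antigen. Cells given PBS, the vehicle, gave 3 libraries (PBS replicates 1 to 3), and another 3 came from cells given cigarette smoke extract (CSE replicates 1 to 3), which carries smoke constituents into the medium. The extract was used at 5% with an optical density of 2 and was added at a culture density of 30%, with collection after 24 h. The labels' extraction text names lung tissue, although every sample is labelled as the cell line. Separate cultures are not stated in the labels for the libraries within a group, so p-values measure only how these libraries spread, which may be technical.

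The region before the gene start was available for 8 of the 10 genes (not Tead1 and Ccn2) from RefSeq, on GRCm38.p6. The TEAD core, GGAATG on either strand, was searched in the 250 bases before each start. It was found for 7 of these 8 genes and in 8 of their 10 windows, as Wwtr1 and Lats2 have more than 1 start. Among all 32851 RefSeq windows of that length, 12.6% hold it. The 9 matches are shown because they are the sequence feature that the pathway's DNA-binding factors read. Each is printed with 10 bases on either side, 5′ to 3′, on the strand that spells GGAATG, with the core in capitals.
Ankrd1 (chr19:36119952-36119977, minus strand): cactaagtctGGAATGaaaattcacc
Ankrd1 (chr19:36120039-36120064, minus strand): cactgccaaaGGAATGaccctctcac
Amotl2 (chr9:102717729-102717754, minus strand): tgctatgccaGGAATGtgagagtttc
Ccn1 (chr3:145650073-145650098, plus strand): aaacatctcaGGAATGttggttggcg
Wwtr1 (chr3:57576031-57576056, minus strand): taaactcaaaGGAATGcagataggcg
Yap1 (chr9:8004722-8004747, minus strand): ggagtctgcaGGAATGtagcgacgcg
Ajuba (chr14:54577810-54577835, plus strand): gtttacagttGGAATGcgcggagggg
Ajuba (chr14:54577832-54577857, plus strand): ggggcactgtGGAATGtatccatcaa
Axl (chr7:25788951-25788976, minus strand): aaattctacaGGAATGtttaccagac

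**Figure D1:**
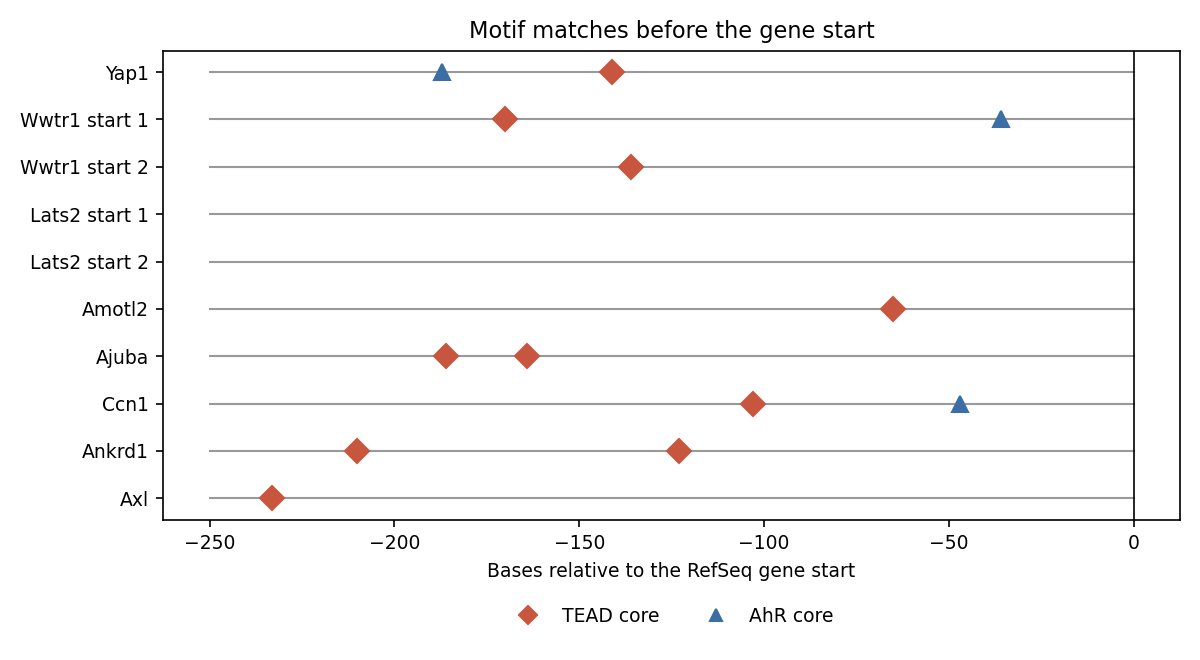
Positions of the TEAD core (diamonds) and the aryl hydrocarbon receptor core (triangles) in the 250 bases before each RefSeq gene start. The x axis gives bases relative to the start and each line is 1 window; 7 of 8 genes have a TEAD core, and both Lats2 windows have neither motif.

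The matches lay between 65 bases (Amotl2) and 233 bases (Axl) before the start. Genes that were lower with smoke extract (Ankrd1, Amotl2 and Wwtr1) and genes that were not called (Yap1, Ccn1, Ajuba and Axl) both had one. Neither of the 2 Lats2 windows held the letters. The core of aryl hydrocarbon receptor sites, GCGTG on either strand, was present before Yap1, Ccn1 and the downstream of the Wwtr1 starts. That is 3 of 10 windows, against 28.2% of all windows. The AP-1 motif TGANTCA was present in none of the 10 windows, against 6.75% of all windows. Over all tested genes with a RefSeq window, the TEAD core was before 112 of 695 genes called lower (16.1%), 61 of 453 called higher (13.5%) and 1123 of 9024 not called (12.4%). A letter match describes the window and does not show that a factor binds there.

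Whole windows are shown for Ccn1, the most abundant of the 10 genes, for Wwtr1, which fell, and for Yap1, which did not pass the test, so that the surroundings of the core can be compared. They hold no exon of these genes in the GENCODE vM21 annotation, run 5′ to 3′ on the gene's own strand, which is the minus strand for all of them, and have the TEAD core in capitals. In Ccn1 the core is read on the opposite strand and appears as its reverse complement. The windows lie at chr3:145649986-145650235 for Ccn1, chr3:57575911-57576160 for Wwtr1 and chr9:8004597-8004846 for Yap1. The Ankrd1 window lies wholly in annotated exons (250 bases), and the Amotl2 window has 136 bases in them, so only the short sites are given. Both Ankrd1 matches, although before the RefSeq start, are thus within sequence that GENCODE annotates as exon.
Ccn1: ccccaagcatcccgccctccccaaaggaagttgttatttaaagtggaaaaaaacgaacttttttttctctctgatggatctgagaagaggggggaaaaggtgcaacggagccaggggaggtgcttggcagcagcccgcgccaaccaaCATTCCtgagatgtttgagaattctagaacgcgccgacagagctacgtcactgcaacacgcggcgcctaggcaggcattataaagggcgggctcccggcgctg
Wwtr1: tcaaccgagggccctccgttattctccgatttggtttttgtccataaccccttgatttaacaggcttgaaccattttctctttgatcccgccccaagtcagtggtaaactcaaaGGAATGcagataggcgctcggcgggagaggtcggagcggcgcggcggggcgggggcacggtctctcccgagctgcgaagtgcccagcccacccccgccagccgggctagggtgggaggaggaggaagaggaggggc
Yap1: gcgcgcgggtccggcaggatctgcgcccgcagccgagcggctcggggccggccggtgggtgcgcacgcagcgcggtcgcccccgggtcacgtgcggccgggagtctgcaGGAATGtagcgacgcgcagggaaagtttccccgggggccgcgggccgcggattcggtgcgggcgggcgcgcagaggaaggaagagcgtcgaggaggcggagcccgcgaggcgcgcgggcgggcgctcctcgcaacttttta

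Across the 10 genes, 4 fell with smoke extract and none rose at an adjusted p under 0.05 (edgeR quasi-likelihood test, Benjamini-Hochberg adjustment over all genes tested). The 4 were Wwtr1, Tead1, Ankrd1 and Amotl2. Of all 13451 genes tested, 7.12% were called lower, 4.32% higher and 11.4% in either direction. The median log2 change of the 10 genes was -0.30, against 0.0056 for all tested genes. The count of 4 fell to 2 without PBS replicate 3, 2 without CSE replicate 1, 1 without CSE replicate 2 (Amotl2) and 1 without CSE replicate 3 (Ankrd1). In normalised CPM (counts scaled to library size), all 3 CSE libraries lay below all 3 PBS libraries for 5 of the 10 genes, the 4 that fell and Lats2, against 16.2% of all tested genes. These sizes are modest: no member changed as much as 2-fold, and the largest drop, that of Ankrd1, left a fitted ratio of CSE to PBS of 0.724.

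**Figure D2:**
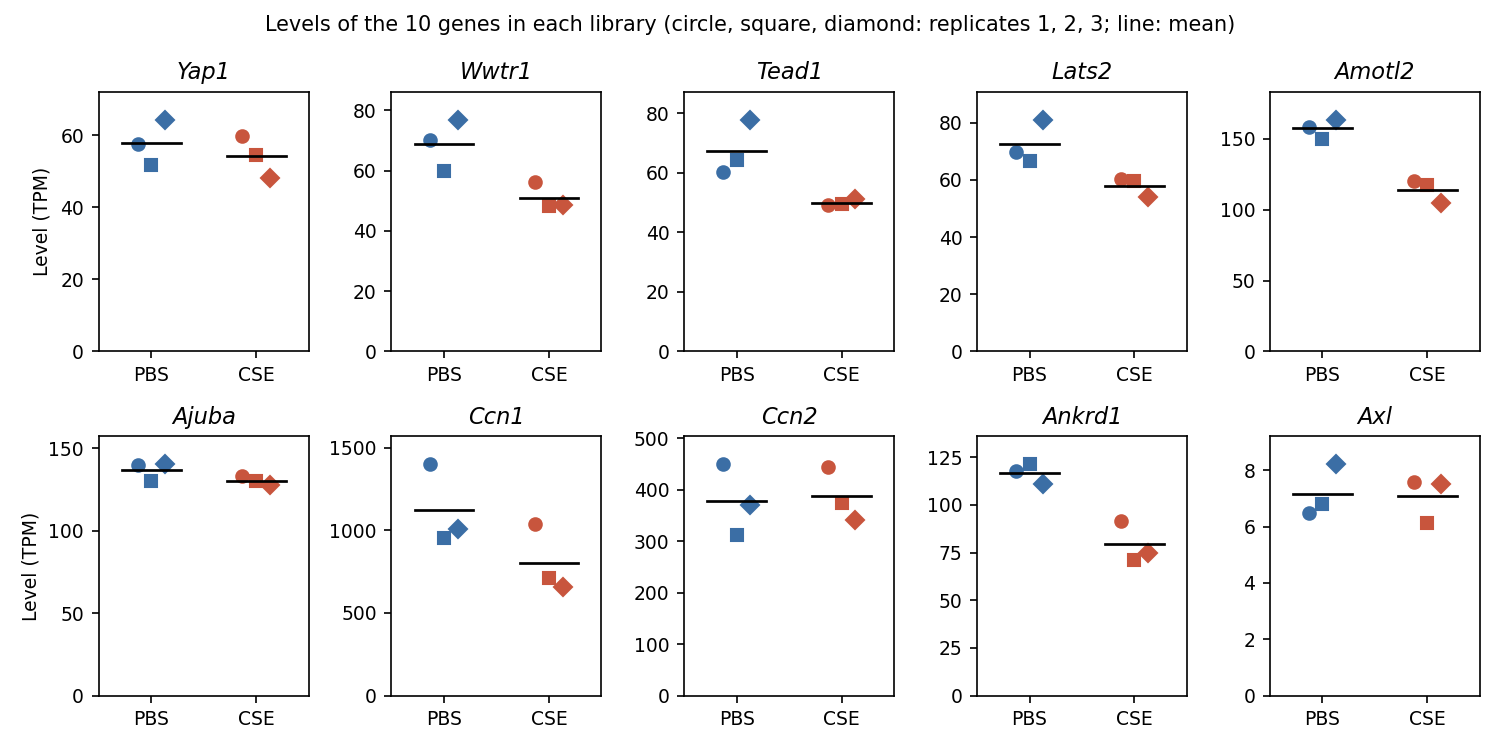
Level of each of the 10 genes in TPM (transcript abundance per length, scaled to one sum per library; y axis, starting at 0) in the 3 PBS and 3 CSE libraries (x axis), with circle, square and diamond for replicates 1, 2 and 3 and a line for the mean. CSE libraries lie below all PBS libraries for Wwtr1, Tead1, Lats2, Amotl2 and Ankrd1, and the groups overlap for the other genes.

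Of the coactivators, TAZ fell and YAP did not pass the test. Levels are given in TPM, which corrects for transcript length and depth and can be compared between genes. Wwtr1 stood at 70.0, 59.9 and 76.8 TPM in the PBS libraries and at 56.2, 48.4 and 48.5 TPM in the CSE libraries. The groups did not overlap, although CSE replicate 1 came close to PBS replicate 2. Wwtr1 fell by 0.36 ± 0.09 on the log2 scale (SE; adjusted p = 0.0291, edgeR). Leaving out PBS replicate 1 (adjusted p = 0.0627), PBS replicate 3 (0.122), CSE replicate 2 (0.144) or CSE replicate 3 (0.115) ended the call, with the change between -0.45 and -0.30 over the 6 fits that leave out 1 library.

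Yap1 was at 57.7, 51.8 and 64.3 TPM in PBS and at 60.0, 54.6 and 48.3 TPM in CSE, and the groups overlapped. Its log2 change was -0.0025 ± 0.09 (SE; adjusted p = 0.989, edgeR), with a 95% interval from -0.20 to 0.19. The share of Wwtr1 in the summed TPM of both coactivators was 54.3% ± 0.608 in PBS and 48.5% ± 1.59 in CSE (SD, n = 3), with no overlap between groups. So TAZ transcripts outnumbered YAP transcripts per length in every PBS library and were near parity in CSE, where the 3 shares ran from 46.9% to 50.1%. Whether the 2 genes differ in their response was not tested as such.

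Among the 3 most like genes by correlation of log2 CPM over the 6 libraries (9427 genes ranked), Yap1 went with Clic5 (r = 0.986), Ripk1 (r = 0.984) and Psmd2 (r = 0.983). Clic5 encodes a chloride intracellular channel protein, Ripk1 a kinase of death receptor signalling and Psmd2 a proteasome subunit. These correlations rest on 6 libraries of unlike depth, with the scaling of each library shared by all genes, and are a description.

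Estimated transcript levels showed which Yap1 forms were present. Yap1-202, with 8 exons, took 60.3% of Yap1 TPM in PBS and 58.2% in CSE, and Yap1-201, with 9 exons, took 34.8% and 37.9%. The form with 9 exons has an extra exon of 48 bases (chr9:7950492-7950539, GRCm38). Levels of Yap1-201 were 17.0, 16.9 and 27.3 TPM in PBS and 26.7, 20.5 and 15.3 TPM in CSE, so they varied widely within each group and the groups overlapped. Read splitting between transcripts is a model estimate, and no test was made at that level.

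Among the TEAD factors, Tead1 fell. It stood at 60.1, 64.4 and 77.8 TPM in PBS and at 49.2, 49.5 and 51.3 TPM in CSE. All 3 CSE libraries lay within a narrow band below the PBS libraries, with PBS replicate 3 highest. The log2 change was -0.38 ± 0.09 (SE; adjusted p = 0.021, edgeR). Removing PBS replicate 3 (adjusted p = 0.0749), CSE replicate 1 (0.0768), CSE replicate 2 (0.0772) or CSE replicate 3 (0.0868) ended the call. The change was -0.27 without PBS replicate 3.

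The main coding form, Tead1-202, had 34.6, 31.4 and 44.4 TPM in PBS and 25.4, 26.3 and 25.6 TPM in CSE, again without overlap. Forms that are not protein coding, chiefly the single-exon retained intron Tead1-215 and the retained intron Tead1-209, took 36.7% of Tead1 TPM in PBS and 37.3% in CSE. Their share per library ran from 30.8% to 44.5% in PBS and from 33.7% to 42.3% in CSE, so the groups overlapped.

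Related factors were read from a list of 7 genes, the other TEAD members and the VGLL cofactors. Of the 5 tested, 2 fell and none rose, against 7.12% of all tested genes called lower. Tead2 was by far the most abundant TEAD gene in these cells, at 206, 230 and 215 TPM in PBS and 225, 203 and 188 TPM in CSE. Its log2 change was 0.014 ± 0.07 (SE; adjusted p = 0.926, edgeR), and it took 68.4% ± 2.12 of the summed TEAD TPM in PBS and 73.9% ± 1.75 in CSE (SD, n = 3). Tead4 stood at 24.5, 25.1 and 24.4 TPM in PBS and at 17.7, 16.8 and 15.3 TPM in CSE. The PBS libraries were nearly equal and all lay above the CSE libraries, and Tead4 fell by 0.48 ± 0.08 on the log2 scale (SE; adjusted p = 0.0035, edgeR).

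Tead3, the least abundant, had 7.56, 8.33 and 7.95 TPM in PBS and 5.44, 6.21 and 5.77 TPM in CSE. The groups did not overlap, but the change of -0.39 ± 0.12 did not pass (SE; adjusted p = 0.0596, edgeR). Summed over the 4 TEAD genes, the level was 317 ± 16.4 TPM in PBS and 278 ± 18.8 TPM in CSE (SD, n = 3). The sum was not tested, and TPM ran slightly lower in CSE over all genes. With limma on log2(TPM + 1), the median log2 change of all genes was -0.061, against 0.0056 in the main edgeR fit. Vgll2, a cofactor of the TEAD factors better known from muscle, was low, at 6.13, 4.82 and 7.08 TPM in PBS and 2.44, 1.87 and 1.55 TPM in CSE. It fell by 1.55 ± 0.23 on the log2 scale (SE; adjusted p = 0.00153, edgeR), the largest change in this group, on 253 counts in PBS and 88 in CSE. Results were recomputed under 17 alternative settings (other scalings, tests and filters, and each library left out in turn), and the calls of Tead4 and Vgll2 were kept in each of these in which they could be computed. Vgll1 and Vgll3 were too low to test.

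Both CCN genes, which encode secreted matricellular proteins and are widely used readouts of YAP activity, failed to pass the test. Ccn1 was the most abundant of the 10 genes, at 1400, 952 and 1008 TPM in PBS and 1040, 711 and 656 TPM in CSE. CSE replicate 1 exceeded PBS replicates 2 and 3, so the groups overlapped. Its log2 change was -0.42 ± 0.18 (SE), with a 95% interval from -0.82 to -0.011 and an adjusted p of 0.181 (edgeR). Without PBS replicate 1 the change was -0.17 and without CSE replicate 1 it was -0.61 (adjusted p = 0.471 and 0.0729). Ccn1 passed in 2 of 17 alternatives, both edgeR fits. These were no low-count filter (adjusted p = 6.1e-05) and the replicate number as a block.

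Ccn2 was at 450, 312 and 371 TPM in PBS and at 445, 375 and 341 TPM in CSE, so that all CSE libraries lay within the range of the PBS libraries. The log2 change was 0.11 ± 0.14 (SE; adjusted p = 0.678, edgeR), with a 95% interval from -0.20 to 0.42. It was 0.31 without PBS replicate 1 (adjusted p = 0.0553) and -0.025 without PBS replicate 2. These 2 genes had the widest spread within PBS of the 10. The coefficient of variation of TPM was 21.8% in PBS and 25.9% in CSE for Ccn1, and 18.4% and 13.6% for Ccn2, against medians of 9.69% and 7.35% over 9888 tested genes with at least 5 TPM. In both genes PBS replicate 1 was the highest and PBS replicate 2 the lowest of its group, and CSE replicate 1 the highest and CSE replicate 3 the lowest.

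Of the 31-base words of the main Ccn2 transcript, 20.7% also occur in transcripts of other genes, nearly all in the overlapping antisense gene Gm15270. Gm15270 had no value of its own among the genes matched, and the strand setting of the counting is not given in the sources used here. Reads from the shared sequence therefore cannot be told apart between the pair. The genes most like Ccn2 over the 6 libraries included Capns1 (r = 0.982), which encodes the small regulatory subunit of calpain, and Pxk (r = 0.977).

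The rest of the CCN family was read from a list of 4 genes. Of the 3 tested, 2 fell and none rose, against 7.12% of all tested genes called lower. Ccn4, known as a Wnt-induced gene, stood at 152, 154 and 158 TPM in PBS and at 115, 111 and 105 TPM in CSE. The groups were tight and well apart, and Ccn4 fell by 0.42 ± 0.07 on the log2 scale (SE; adjusted p = 0.00239, edgeR), a call kept in all 17 alternatives. Ccn3 was low, at 1.24 ± 0.164 TPM in PBS and 0.614 ± 0.0605 TPM in CSE (SD, n = 3), and fell by 0.92 ± 0.25 (SE; adjusted p = 0.0397). Its call was lost without any 1 of PBS replicate 2, PBS replicate 3, CSE replicate 1, CSE replicate 2 or CSE replicate 3, with adjusted p up to 0.141, which leaves 1 called gene in the list. Ccn6, between 0.486 and 1.53 TPM, had a change of -0.45 ± 0.50 that did not pass (adjusted p = 0.617), and Ccn5 was too low to test.

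Ankrd1, which encodes a nuclear and sarcomeric ankyrin repeat protein and is a common YAP readout, had the largest fitted drop of the 10 genes. It stood at 118, 121 and 111 TPM in PBS and at 91.7, 71.3 and 74.8 TPM in CSE. The lowest PBS library lay above the highest CSE library. Ankrd1 fell by 0.47 ± 0.09 on the log2 scale (SE; adjusted p = 0.00864, edgeR). The call held in 16 of 17 alternatives and was lost without CSE replicate 2 (adjusted p = 0.0588, change -0.40).

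At the transcript level, the summed coding forms of Ankrd1 averaged 73.4 ± 7.45 TPM in PBS against 56.6 ± 6.50 TPM in CSE (SD, n = 3), with no overlap between groups. Forms annotated as not coding, chiefly Ankrd1-203, a target of nonsense-mediated decay, took 37.1% of Ankrd1 TPM in PBS and 28.5% in CSE. Ankrd1-203 itself was at 27.7, 41.6 and 33.8 TPM in PBS and at 22.4, 16.0 and 15.8 TPM in CSE. The non-coding share was 30.5%, 43.0% and 37.8% in PBS and 30.5%, 28.5% and 26.5% in CSE, so PBS replicate 1 was level with CSE replicate 1. The coding form Ankrd1-205 varied from 30.3 to 64.5 TPM among PBS libraries and Ankrd1-201 from 17.5 to 38.9 TPM, with the highest level of one in the library with the lowest of the other.

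**Figure D3:**
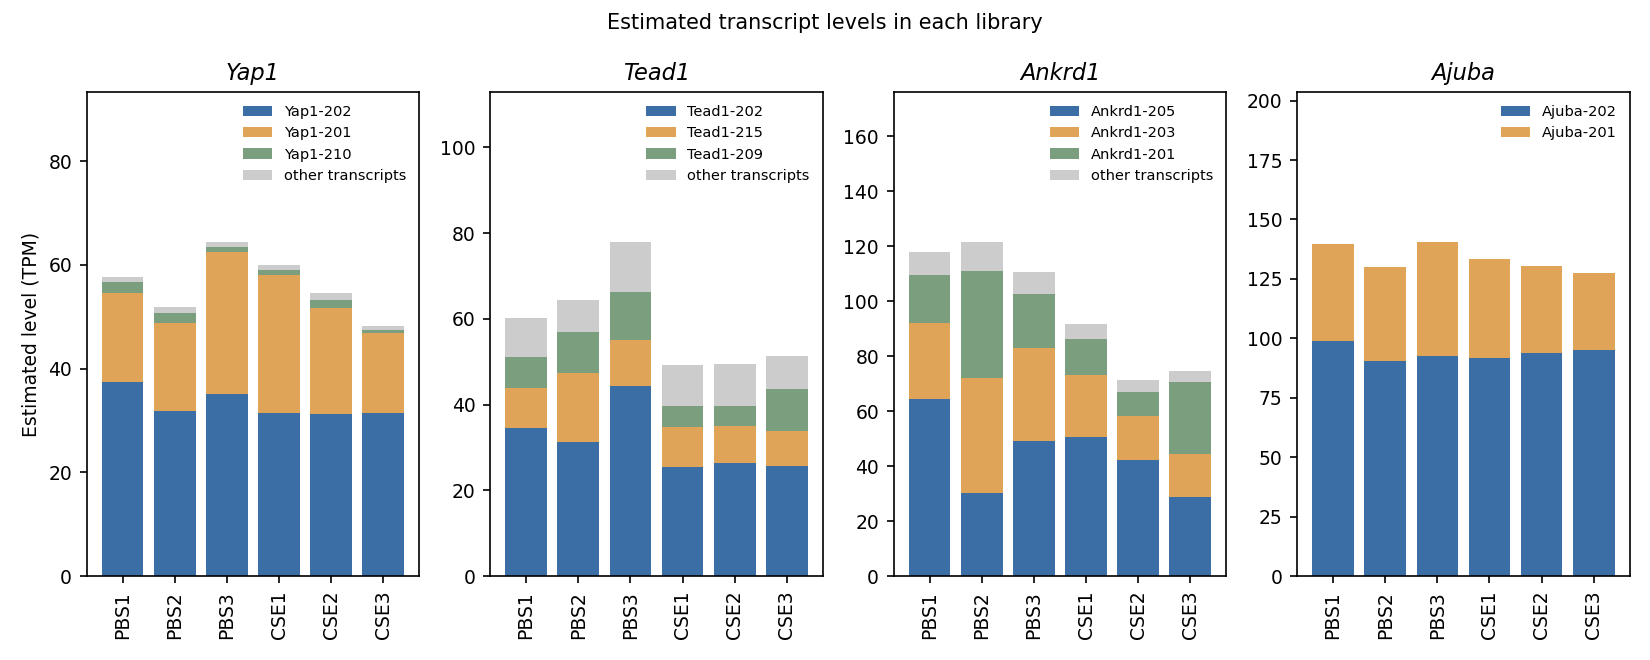
Estimated level of each transcript (TPM, y axis, stacked from 0) of Yap1, Tead1, Ankrd1 and Ajuba in the 6 libraries (x axis), with the most abundant transcripts in colour and all others in grey. The split between forms varied within groups, as for Ankrd1-205, at 30.3 to 64.5 TPM in PBS.

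Amotl2, an angiomotin family member that binds YAP at junctions and is also its target, fell. It stood at 158, 150 and 163 TPM in PBS and at 120, 117 and 105 TPM in CSE. The groups were clearly separate and each was tight. Amotl2 fell by 0.37 ± 0.07 on the log2 scale (SE; adjusted p = 0.00918, edgeR). The call was lost without CSE replicate 1 (adjusted p = 0.0544) or CSE replicate 3 (0.0614), with the change at -0.36 and -0.35.

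The list of other angiomotins and junction proteins that bind YAP or act on it held 15 genes, of which 14 were tested, 4 fell and none rose, against 7.12% of all tested genes called lower. The median log2 change was -0.20. Fat4, an atypical cadherin upstream of the pathway, fell by 0.42 ± 0.09 (SE; adjusted p = 0.0118, edgeR), from 4.57 ± 0.511 to 3.35 ± 0.508 TPM (SD, n = 3). Ptpn14, a phosphatase that binds YAP and is itself one of its targets, fell by 0.36 ± 0.08 (adjusted p = 0.0138), from 35.2 ± 1.57 to 25.2 ± 1.97 TPM. The polarity gene Crb3 fell by 0.79 ± 0.20 (adjusted p = 0.0281), from 7.89 ± 0.74 to 4.47 ± 0.813 TPM. The other gene was Ptpn21, a relative of Ptpn14 named here after its value was seen, which fell by 0.26 ± 0.07 (adjusted p = 0.0449). The count of 4 became 2 without CSE replicate 1, 1 without CSE replicate 2 and 0 without PBS replicate 3 or without CSE replicate 3. It was also 2 with GC and length trends taken out and 1 with an offset for effective length, and without PBS replicate 1 it was made of 3 lower genes and 1 higher. With GC and length trends taken out, the change of Ptpn14 was -0.18 (adjusted p = 0.118) and that of Fat4 was -0.24 (adjusted p = 0.0691).

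Lats2, the kinase that phosphorylates YAP and is induced by it in a feedback loop, was lower in CSE without passing the test. Its levels were 69.6, 66.6 and 81.0 TPM in PBS and 60.2, 59.7 and 53.9 TPM in CSE. No CSE library reached a PBS library. The log2 change was -0.25 ± 0.08 (SE; adjusted p = 0.0689, edgeR), with a 95% interval from -0.43 to -0.076. It passed with DESeq2 (adjusted p = 0.0424), with a minimum of 5 CPM (0.0469) and without PBS replicate 2 (0.0178). Of the 31-base words of its main transcript, 56.7% also occur in the overlapping gene Gm49361, which was listed at 0 TPM in all 6 libraries, so the split of reads between the pair is uncertain.

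Lats2 took 93.7% ± 0.918 of the summed TPM of both LATS genes in PBS and 91.9% ± 1.27 in CSE (SD, n = 3), with overlap. Of 20 Hippo kinases and adaptors, all tested, 1 fell and none rose, with a median log2 change of -0.073. The 1 called gene was Rassf1, a scaffold that binds the MST kinases, which fell by 0.26 ± 0.07 (SE; adjusted p = 0.0444, edgeR) and was called in 6 of 17 alternatives. Its call was lost without PBS replicate 2, PBS replicate 3, CSE replicate 1, CSE replicate 2 or CSE replicate 3, with adjusted p up to 0.174. The list's count was 2 without PBS replicate 1 or PBS replicate 2, and 0 when any of the other 4 libraries was left out. The adaptors Wwc1 and Wwc2 had changes of -0.23 each (adjusted p = 0.0892 and 0.0771) with groups that did not overlap, and without PBS replicate 2 both passed (0.0327 and 0.035), while Rassf1 did not. At 1 of 20 genes, or 5%, the share called lower was below the 7.12% of all tested genes.

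Ajuba, a LIM-domain scaffold that restrains LATS kinases and binds junctions, was at 140, 130 and 140 TPM in PBS and at 133, 130 and 128 TPM in CSE. The 6 libraries lay close together and the groups overlapped. Its log2 change was -0.0065 ± 0.07 (SE; adjusted p = 0.967, edgeR), with a 95% interval from -0.16 to 0.15. Most of its TPM, 68.9% in PBS and 71.7% in CSE, was assigned to the retained intron form Ajuba-202. The coding form Ajuba-201 had 40.6, 39.4 and 47.7 TPM in PBS and 41.8, 36.4 and 32.6 TPM in CSE, again with overlap.

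Of 6 other LIM proteins of the Ajuba and zyxin families, all tested, 1 fell and none rose. Among all tested genes, 7.12% were called lower. The gene that fell was Zyx, which encodes zyxin, a focal adhesion protein that moves to actin fibres under tension. Zyx stood at 282, 323 and 301 TPM in PBS and at 212, 212 and 173 TPM in CSE. With a wide gap between the groups, it fell by 0.52 ± 0.08 on the log2 scale (SE; adjusted p = 0.0019, edgeR), a call kept in all 17 alternatives. The other 5 had changes from -0.46 to 0.097.

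Axl, a receptor tyrosine kinase and reported YAP target, was the least abundant of the 10 genes, at 6.48, 6.81 and 8.22 TPM in PBS and 7.59, 6.14 and 7.50 TPM in CSE. The groups overlapped. Its log2 change was 0.0013 ± 0.10 (SE; adjusted p = 0.995, edgeR), with a 95% interval from -0.23 to 0.23, on 891 counts in PBS and 914 in CSE. Among the other TAM receptors and ligands, 3 of 4 were tested and none passed in the main edgeR fit. All 3 had an unadjusted p under 0.05 there, as did 3497 of the 13451 genes tested. The count called was 0 with DESeq2, and 1 with limma-voom and in the edgeR fits with no low-count filter or at least 5 CPM. The gene was Tyro3, with a log2 change of -0.37 ± 0.11 (SE). Its adjusted p was 0.0551 in the main edgeR fit and 0.0491 with limma-voom. The receptor gene Mertk was under 1 TPM in every library with a change of -0.62 ± 0.26 (adjusted p = 0.164). Pros1, which encodes protein S, a TAM ligand, had a change of 0.28 ± 0.11 (adjusted p = 0.146). The other ligand gene, Gas6, was listed at 0 TPM in all 6 libraries.

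**Figure D4:**
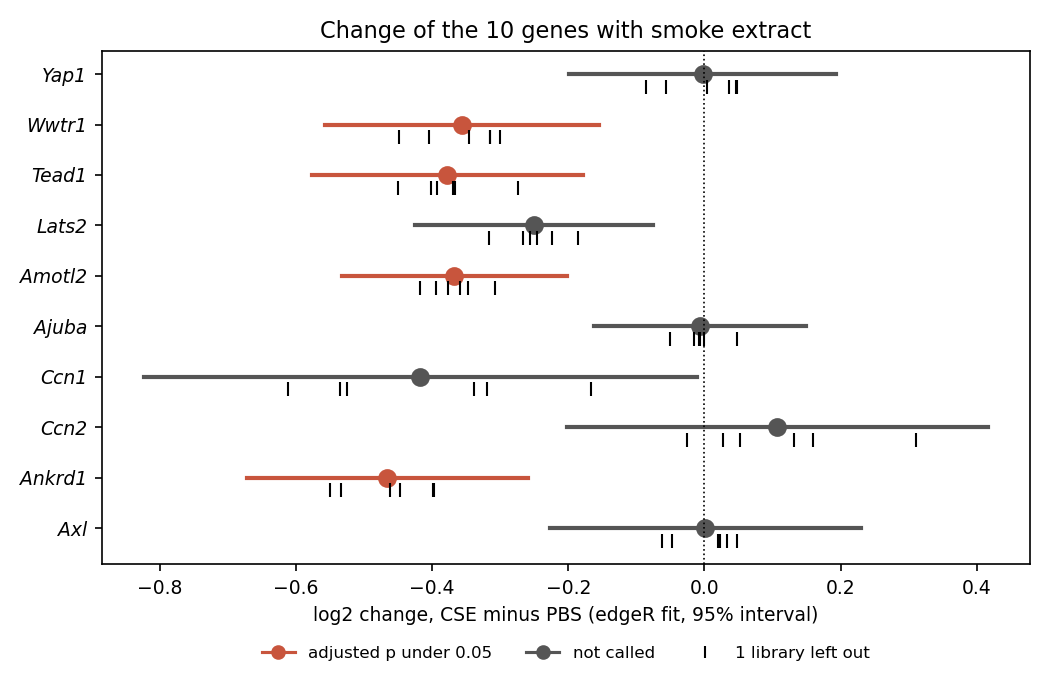
Log2 change between CSE and PBS for the 10 genes (x axis; edgeR fit, dot with 95% interval), in red where the adjusted p is under 0.05, with ticks for the 6 fits that leave out 1 library. Wwtr1, Tead1, Amotl2 and Ankrd1 are red, and the intervals of Yap1, Ajuba, Ccn2 and Axl span 0.

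By level in PBS, the 10 genes ran from Ccn1 (1120 ± 244 TPM, SD, n = 3) through Ccn2 (378 ± 69.3), Amotl2 (157 ± 6.68), Ajuba (137 ± 5.86) and Ankrd1 (117 ± 5.43) to Lats2 (72.4 ± 7.59), Wwtr1 (68.9 ± 8.52), Tead1 (67.5 ± 9.24), Yap1 (58.0 ± 6.27) and Axl (7.17 ± 0.926). Libraries of Lats2, Wwtr1, Tead1 and Yap1 overlapped from each neighbour to the next, and those of the other neighbours did not. In CSE, Ajuba (130 ± 2.97 TPM) stood above Amotl2 (114 ± 8.01), the reverse of the PBS order, with no overlap between the 2 genes in either group. The counts behind these levels, summed over a group, ran from 891 for Axl to 64342 for Ccn1.

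A wider list of 16 other published YAP and TAZ targets was tested in full, and 1 fell, Ptpn14, which is also in the list of junction binders. None rose, and the median log2 change was -0.20. Of the 15 not called, Nt5e, the ecto-enzyme CD73, had a change of -0.36 ± 0.10 (SE; adjusted p = 0.0505, edgeR) and the matrix protein gene Ccdc80 a change of -0.86 ± 0.25 (adjusted p = 0.0518). Both lie just short of the threshold, and Nt5e passed in 8 of 17 alternatives. Leaving out PBS replicate 2 gave 5, leaving out either library numbered 1 gave 2, and none was called when PBS replicate 3 or either of CSE replicates 2 and 3 was left out (0 each). With no low-count filter the count was 5, and with GC and length trends taken out 1 gene was called lower and 1 higher. At 6.25%, the share called lower was near that of all tested genes.

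The actin-regulated factors MRTF and SRF share stimuli and several target genes with YAP. Of 18 of their targets listed, 15 were tested, 4 fell and none rose, against 7.12% of all tested genes called lower. The median log2 change was -0.17. Vcl, which encodes the focal adhesion protein vinculin, stood at 123, 89.5 and 142 TPM in PBS and at 69.5, 74.9 and 66.3 TPM in CSE. PBS libraries spread widely but all lay above the CSE libraries, and Vcl fell by 0.68 ± 0.13 on the log2 scale (SE; adjusted p = 0.00773, edgeR), a call kept in all 17 alternatives. The actin-binding calponin Cnn2 fell by 0.37 ± 0.07 (adjusted p = 0.00682), from 93.8 ± 1.91 to 68.6 ± 6.29 TPM (SD, n = 3), and the LIM protein gene Fhl2 by 0.59 ± 0.14 (adjusted p = 0.0205), from 19.6 ± 2.20 to 12.4 ± 1.59 TPM. The other was Filip1l, named after its value was seen, which fell by 0.51 ± 0.14 (adjusted p = 0.0408) and was called in 8 of 17 alternatives. The count was 2 without CSE replicate 2 or CSE replicate 3 and 6 with GC and length trends taken out.

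**Figure D5:**
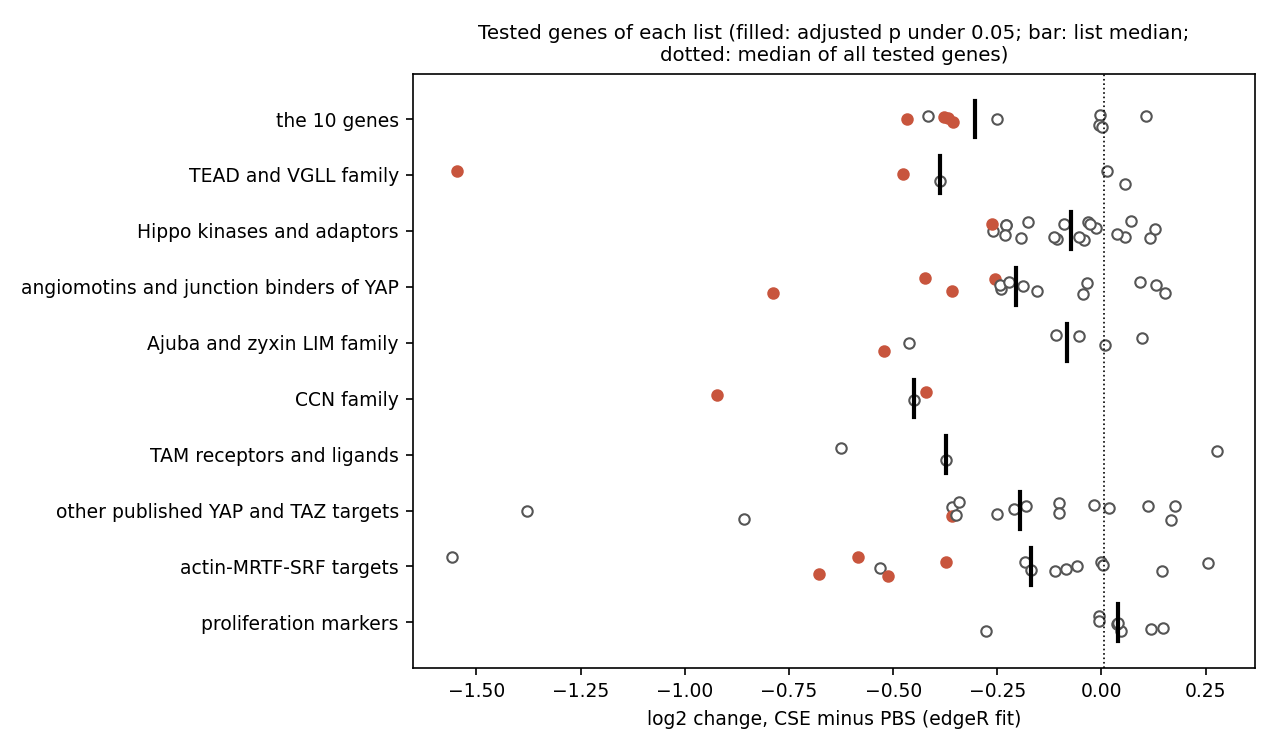
Log2 change between CSE and PBS (x axis, edgeR fit) for each tested gene of the 10 members and of the related lists (rows), filled where the adjusted p is under 0.05, with a bar at each list's median and a dotted line at the median of all tested genes. Filled points lie below 0 in each row that has any, and the proliferation markers centre near 0.

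Over these 8 related lists, 81 of 89 genes were tested, with a median log2 change of -0.17. A negative change was seen in 61 of the 81, and in 6598 of all 13451 genes tested. At the threshold, 14 fell and none rose. That is 17.3% called lower, against 7.12% of all tested genes. The count was 10 without CSE replicate 1, 7 without PBS replicate 3 or CSE replicate 2, 6 without CSE replicate 3, and 17 when PBS replicate 1 or PBS replicate 2 was left out. Of the 17 without PBS replicate 1, 16 were lower and 1 was higher. Among the other alternatives it ran from 8 (offset for effective length) to 19 (no low-count filter), with 15 lower and 1 higher with GC and length trends taken out.

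Proliferation markers were read because YAP activity and growth are linked. Of 8 tested, none passed in the main edgeR fit, with DESeq2 or with limma-voom. None had an unadjusted p under 0.05 in that edgeR fit. Mki67 was at 33.6, 66.2 and 51.5 TPM in PBS and at 44.2, 37.2 and 37.0 TPM in CSE, with overlapping groups. Its change of -0.28 ± 0.18 (SE; adjusted p = 0.361, edgeR) passed without PBS replicate 1 (-0.47, adjusted p = 0.0299) and with no low-count filter (0.0261). Changes of the S phase gene Pcna (0.12 ± 0.08) and of the topoisomerase gene Top2a (0.15 ± 0.08) had adjusted p-values of 0.375 and 0.273.

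Markers of lung cell types were also read in this cell line, and they did not all move the same way. The summed level of 7 epithelial markers was 345 to 366 TPM in PBS and 273 to 290 TPM in CSE. Of the 6 tested, 4 fell (Cdh1, Krt8, Cldn3 and Sftpc), against 7.12% of all tested genes called lower. The lung epithelial factor Nkx2-1 was between 98.7 and 130 TPM and Krt8 between 152 and 218 TPM, whereas Epcam was between 1.42 and 2.63 TPM and Krt18 was under 1 TPM in every library. Mesothelial markers summed to 195 to 220 TPM in PBS and 60.8 to 69.1 TPM in CSE, with 3 of 4 lower. The other, Wt1, had a log2 change of 0.032 (adjusted p = 0.917, edgeR). Fibroblast markers summed to 868 to 1126 TPM and 477 to 544 TPM, nearly all from Dcn, with 3 of 6 under 1 TPM throughout. Of the 3 tested, Dcn and Col1a1 fell and Pdgfra rose by 0.84 ± 0.12 (SE; adjusted p = 0.00125, edgeR), from 2.67 to 4.49 TPM. Endothelial markers summed to at most 2.55 TPM, with Cdh5 at 0 TPM in all libraries, and leukocyte markers to at most 6.20 TPM, with Adgre1 at 0. The part of these marker changes in the results above was not tested, and in bulk RNA fewer cells of a type and less RNA per cell cannot be told apart.

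The 6 libraries held from 12093009 to 24050167 estimated counts each, so that 3 counts are worth 0.125 to 0.248 CPM. Normalisation factors ran from 0.976 to 1.03, and mitochondrial genes took 2.18% to 2.87% of all counts. Over all genes, 581 were called higher and 958 lower.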

How the data were processed

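Polyadenylated RNA of 3 PBS and 3 CSE libraries was analysed, with groups and replicate numbers from the sample titles. Each file deposited by the authors has kallisto's columns, per the file headers, and gives an estimated count for each of 118489 transcripts. A TPM value stands beside it in the deposited files, which is the count per effective length scaled to the same sum in each library. Tools named in the submitters' processing notes are FastQC 0.12.1, fastp 0.20.1, DESeq2 1.40.2 and kallisto 0.46.2, with GRCm38 as the build. Index, trimming and strandedness were not given in the sources used here. Reads that fit more than 1 transcript are divided by kallisto's model, so values of overlapping genes and of single transcripts are estimates.

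Transcripts were matched by versioned identifier to GENCODE vM21 (116816, or 98.6%), and the other 1673, with 0.638% to 0.664% of the counts, were left out. Counts and TPM were summed per gene and the counts rounded. After filterByExpr (minimum count 10) and TMM scaling, groups were compared by edgeR's quasi-likelihood test (two-sided, treatment as the factor), with Benjamini-Hochberg adjustment over 13451 genes and a threshold of 0.05. The biological coefficient of variation was 9.17%. The procedure was tested on simulated counts. Libraries of a group were not duplicates (chi-square per degree of freedom 5.61 to 17.7).

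The 10 genes, the lists and the tests were chosen with earlier results of these data known. Named were the 10 genes, in each list the 3 of smallest p, and all genes of lists of 7 or fewer. Not all of these are described, and marker genes, Ptpn21 and Filip1l were named outside this rule. Likeness was ranked by Pearson correlation of log2 CPM (prior count 2) over tested genes with at least 5 TPM. Shared sequence was counted in 31-base words of the most abundant transcript.

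Alternatives tried were DESeq2, limma-voom, scaling by RLE or by library size only, no low-count filter, a mean of at least 5 CPM, an offset for effective length, limma with log2(TPM + 1) or log2(TPM + 0.1) for genes of at least 1 TPM, removal of GC and length trends (loess, span 0.5), the replicate number as a block, and each of 6 libraries left out. Depth sets a floor of 3 counts per library. Python 3.11.15 (pandas 2.3.3, matplotlib 3.10.9) and R 4.3.3 (DESeq2 1.42.0, limma 3.58.1, edgeR 4.0.16) were used.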

Additional observations from a re-analysis of the deposited data

How the results depend on the processing

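The 4 calls among the 10 genes were kept in each alternative that used all libraries, except for Tead1 in the fit with the replicate number as a block (adjusted p = 0.0542, edgeR), and with 1 library left out the count ran from 1 to 5. DESeq2 and a mean of at least 5 CPM added Lats2, and the fit with no low-count filter added Ccn1 (adjusted p = 6.1e-05). Genes changed overall numbered 1539, 998 with limma on log2(TPM + 1), 985 with limma on log2(TPM + 0.1), and 837 to 1941 with 1 library left out. Of the latter, 837 were called without CSE replicate 3, 859 with CSE replicate 2 left out and 963 with PBS replicate 3 left out. The split of 581 higher and 958 lower became 224 and 774 with log2(TPM + 1), 1052 and 1145 with no low-count filter, 882 and 871 after removal of GC and length trends, and 967 and 974 without PBS replicate 1. The cause was not tested.

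Same-numbered libraries did not deviate together over all tested genes (correlations of -0.124, 0.0061 and -0.059). With so few libraries this cannot settle whether the numbers pair them. With the replicate block 1022 genes were called, and 4 of the 10 genes, with Ccn1 (adjusted p = 0.0288) in place of Tead1, and 2 of the junction binders were called. Only CSE replicate 2 correlated best with its own number, and every other library correlated best with a different one.

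Changes near 0 altered sign, without passing the test. Yap1 was at 0.0025 with DESeq2, 0.0012 with no low-count filter, 0.053 after removal of GC and length trends, 0.00055 with the replicate block and between -0.086 and 0.048 with 1 library left out. Ccn2 lay between -0.025 and 0.31 with 1 library left out. Ajuba was at 0.0089 with the effective length offset and between -0.051 and 0.048 with 1 library left out. Axl was at -0.014 with library size only, -0.0087 with at least 5 CPM, -0.016 with log2(TPM + 1), -0.018 with log2(TPM + 0.1), and between -0.063 and 0.048 with 1 library left out. Tead2 was at -0.0059 with the effective length offset, -0.081 with log2(TPM + 1), -0.082 with log2(TPM + 0.1) and between -0.023 and 0.048 with 1 library left out. Depth limits genes such as Ccn3, Ccn6 and Mertk, with at most 109 counts in a group.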
